A study of Bos taurus with 13 samples.

Results

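The genes described here are 3 leukocyte genes, PTPRC, LCP1 and RAC2, and 3 genes of surface regulators of immune cells, CD47, CD99 and LGALS9, on a bovine mammary cDNA microarray. They were taken as all spots that the platform annotation names with 1 of these 6 symbols, which gave 18 of the 3888 spots of an array and 6 of the 703 genes kept. Each gene was represented by 1 cDNA clone printed as 3 spots, so the 3 spots of a gene share their sequence and are repeat measurements on 1 array, not replicates of a tissue. The set was chosen by function and with earlier results of these arrays in view, above all the ratios between lactating and prepubertal gland, so those values are given as a description.

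The 13 arrays each compared 2 total RNAs from cattle (Bos taurus). On 8 arrays the first channel held a reference shared by all of them, the BovMac cell line. A ratio thus sets a tissue against this line, whose own level of these genes the ratios do not give. By itself it is not a measure of leukocyte content. The second channel held a lymphoid organ (spleen, thymus or lymph tissue), ileum, liver, adrenal or adipose tissue, or the mammary gland of a prepubertal Holstein heifer of 136 kg. On 2 arrays the first channel held lactating mammary gland and the second the prepubertal gland of a Holstein heifer of 136 kg (array 1) or 227 kg (array 2, whose keywords say post-pubertal where its title and channel say pre-pubertal). Another array set the prepubertal gland of a 136 kg heifer (first channel) against the gland of a 310 kg postpubertal heifer, and the last 2 set the reference against itself, to measure false positives per the labels (the label of the first of these spells the line BovMav). The labels give no treatment, no age, no animal for the 7 other tissues and no pooling, and they do not say whether the lactating RNA of the 2 arrays was shared. With 9 of 11 groups on 1 array, p-values below rest only on the spread between these arrays, whose number limits the precision. The test used, limma, sets the spread of a gene from its own arrays and from that of all genes. On the 2 lactating arrays the latter weighed most: CD47, with an SD of 0.83 over arrays, got a standard error of 0.215. For PTPRC the SD was 0.03 and the standard error 0.15.

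As background, PTPRC encodes CD45, the receptor tyrosine phosphatase on all nucleated blood cells, which sets the threshold of antigen receptor signalling. LCP1 encodes L-plastin, the actin-bundling protein of leukocytes, and RAC2 a signalling protein of blood cells that drives migration and the phagocyte oxidase. CD47 is a widely expressed membrane protein that binds SIRP-alpha on phagocytes and restrains engulfment. CD99 is a surface glycoprotein used by leukocytes in crossing the endothelium, and LGALS9 encodes galectin-9, a secreted lectin that binds glycans on T cells and other immune cells. Leukocytes live in the mammary gland at every stage and enter milk in lactation. In tissue RNA, fewer cells of a type and less RNA per cell cannot be told apart.

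Values are the deposited log ratios of the 2 channels after centring each array on its median, with the mean and the SD over 3 spots. That SD leaves out differences between arrays, so steps between tissues are set against spot error only. The sources used here do not give the base of the logarithm, the dyes or the order of the channels in the ratio, so no fold is stated. On the tissue arrays the direction was unsettled: a positive ratio may mean more RNA in the tissue or more in the reference, and with the sign turned every "above" and "below" trades places. The adrenal array correlated below 0 with each of the other 7 across genes (Pearson r from -0.31 with liver to -0.02 with ileum). Liver and thymus, the only other such pair, had an r of -0.03. The labels put the reference in the first channel of the adrenal array too, so its orientation relative to the rest is also unsettled. Results are therefore also given with the adrenal ratios turned where that changes them, an alternative chosen after seeing the data. On the lactating arrays the positive side is likely that of lactating gland, from the milk casein genes, though these were not of 1 sign. CSN1S1 lay at 1.61 and 2.56 and CSN2 at 0.76 and 0.79, but CSN3 at 0.98 and -0.16 and CSN1S2 at -0.19 and 0.39. Lactating gland was in the first channel there, as the reference was on the tissue arrays. The same channel order would make a positive tissue ratio mean more RNA in the reference. In ileum, however, the epithelial genes EPCAM (1.94), ELF5 (0.72), MUC1 (0.15) and KRT7 (0.06) were all positive. The direction on the tissue arrays was not resolved.

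The spread of gene values differed between the arrays. It was widest for ileum among the tissues, with an SD over genes of 0.51, against 0.15 to 0.25 for the other 7. Spots with an exact 0 (124 to 373 on an array) were taken as missing. For these genes that removed 1 CD47 spot on the thymus array, 2 CD47 spots on reference against reference array 2 and 2 LGALS9 spots on the postpubertal array. The last 2 left 1 spot each and so gave no gene value. All 6 genes passed the filter on low numbers of spots and arrays.

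**Figure D1:**
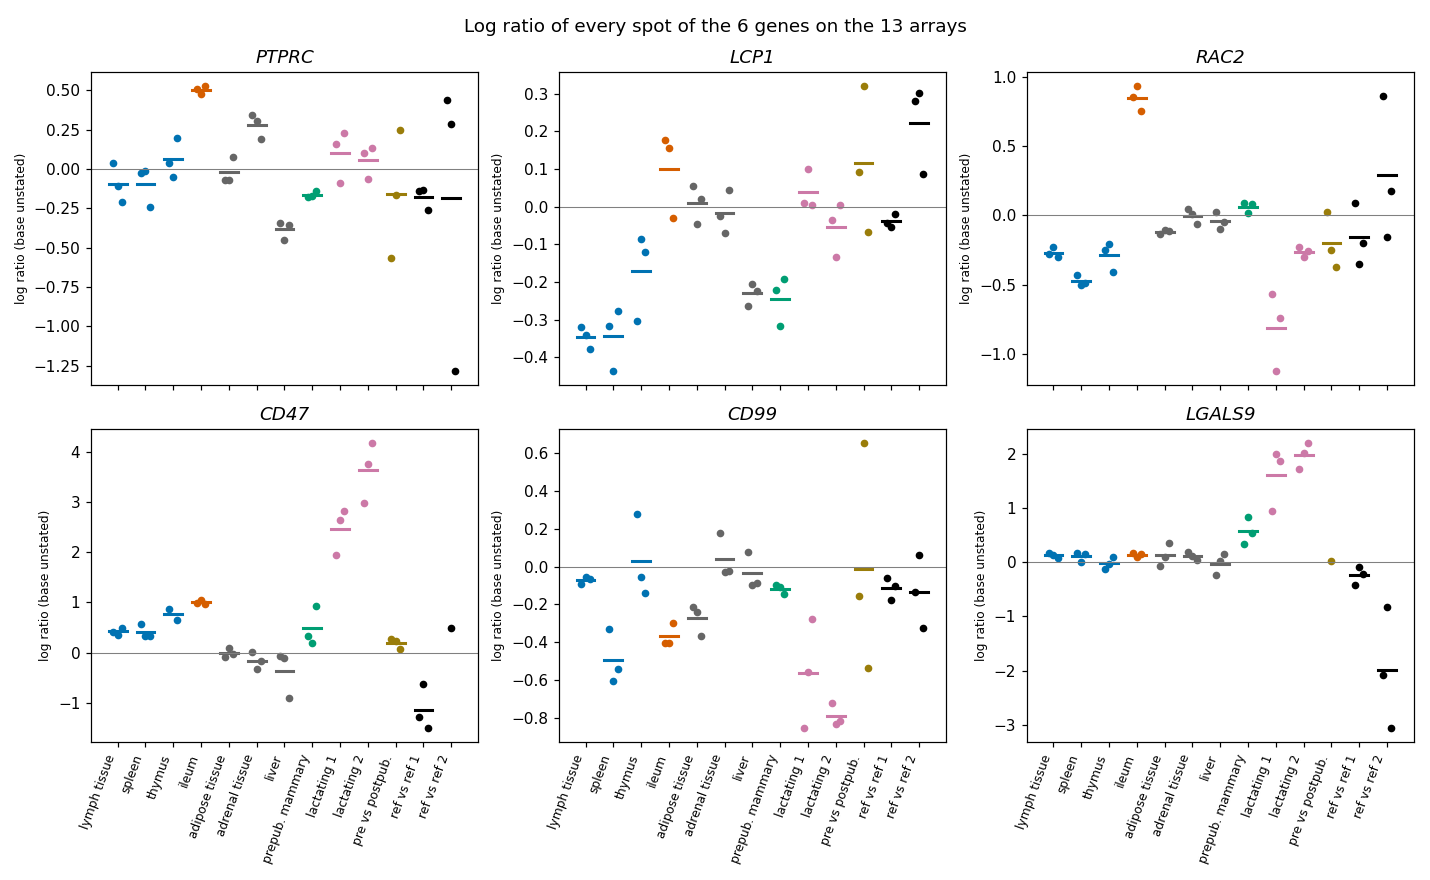
Log ratio (base unstated, arrays centred on their median) of every spot of PTPRC, LCP1, RAC2, CD47, CD99 and LGALS9 on the 13 arrays; points are spots, bars the mean where at least 2 spots had a value, and the vertical scale differs between panels. Blue marks lymph tissue, spleen and thymus, orange ileum, grey adipose tissue, adrenal tissue and liver, green prepubertal mammary gland, pink the lactating arrays, brown the postpubertal array and black the reference against reference arrays. CD47 and LGALS9 reach their highest values on the lactating arrays, RAC2 its highest in ileum. The lactating ratios are with prepubertal gland and the tissue ratios with the reference, so their sizes are not comparable.

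PTPRC was most positive in ileum and most negative in liver. Its 3 spots read 0.51, 0.47 and 0.53 in ileum (mean 0.50 ± 0.03) and -0.34, -0.45 and -0.35 in liver (mean -0.38 ± 0.06). The ileum spots lay above every PTPRC spot of the other 7 tissues, also with the adrenal ratios turned. The liver spots lay below all others as deposited, but overlapped those of adrenal tissue with its ratios turned. Adrenal tissue came next to ileum at 0.28 ± 0.08 (-0.28, next to liver, if turned), then thymus at 0.06 ± 0.13, adipose tissue at -0.02 ± 0.09, spleen at -0.09 ± 0.13, lymph tissue at -0.10 ± 0.13 and prepubertal mammary gland at -0.16 ± 0.02. From thymus down to mammary gland, the gaps between neighbours (0.0024 to 0.08) were within the SD over spots, so the order of neighbours was not resolved. Among the leukocyte-rich organs, spleen did not differ from adipose tissue beyond its spots, nor lymph tissue from mammary gland. With the reference in both channels PTPRC was at -0.18 ± 0.07 and -0.19 ± 0.95, where the spots of the second array ran from -1.28 to 0.44.

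LCP1 had the smallest range of the leukocyte genes, from -0.35 in lymph tissue to 0.10 in ileum. It was negative in 6 of 8 tissues as deposited. Lymph tissue (-0.35 ± 0.03) and spleen (-0.34 ± 0.08) were lowest and differed by 0.0032, well within the SD over spots. Above them lay prepubertal mammary gland (-0.24 ± 0.06), liver (-0.23 ± 0.03) and thymus (-0.17 ± 0.12), and then adrenal tissue (-0.02 ± 0.06), adipose tissue (0.01 ± 0.05) and ileum (0.10 ± 0.11). As deposited, the step from spleen to mammary gland (0.10) and that from thymus to adrenal tissue (0.15) were larger than the SD over spots. The other 5 were not. With its ratios turned, adrenal tissue was at 0.02, between adipose tissue and ileum. With the reference in both channels LCP1 was at -0.04 ± 0.02 and 0.22 ± 0.12.

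RAC2 separated the tissues most clearly for its spot error: the SD of its tissue means, 0.40, was 6.36 times the pooled SD over spots, against 1.24 to 2.99 times for the other 5 genes. Ileum stood alone, with spots at 0.85, 0.93 and 0.76 (mean 0.85 ± 0.09), above all RAC2 spots of the other tissues, whose highest was 0.09. Spleen stood alone at the other end, with spots at -0.43, -0.50 and -0.49 (mean -0.47 ± 0.04), below every RAC2 spot elsewhere. Thymus (-0.29 ± 0.11) and lymph tissue (-0.27 ± 0.04) did not differ beyond their spots. Adipose tissue (-0.12 ± 0.01), liver (-0.04 ± 0.06), adrenal tissue (-0.0008 ± 0.06) and prepubertal mammary gland (0.06 ± 0.04) followed, with steps of 0.04 to 0.08, of which that between liver and adrenal tissue was within the SD over spots. The 3 lymphoid tissues were therefore the lowest for RAC2 and ileum the highest. With the reference in both channels RAC2 was at -0.15 ± 0.23 and 0.29 ± 0.52. These arrays of the same RNA lay farther apart than any neighbouring tissues but ileum and mammary gland.

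CD47 was positive in the immune organs, ileum and mammary gland. Its ileum spots read 0.98, 1.06 and 0.96 (mean 1.00 ± 0.05), the only tissue mean of the 6 genes at 1 log unit or more from 0, where 6.0% of all genes lay on the ileum array. Thymus followed at 0.77 ± 0.16 (2 spots), prepubertal mammary gland at 0.49 ± 0.40, lymph tissue at 0.42 ± 0.07 and spleen at 0.41 ± 0.14. Below a step of 0.42, larger than the SD over spots, lay adipose tissue (-0.01 ± 0.09), adrenal tissue (-0.16 ± 0.17) and liver (-0.36 ± 0.47, with spots at -0.08, -0.11 and -0.91). With its ratios turned, adrenal tissue was at 0.16, between spleen and adipose tissue, and the step below spleen was smaller. The spots disagreed most in liver and mammary gland. On reference against reference array 1, where no difference is set up, CD47 was at -1.14 ± 0.46, which is farther from 0 than in any tissue.

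CD99 stayed near or below 0. Spleen was lowest at -0.49 ± 0.14, then ileum at -0.37 ± 0.06, adipose tissue at -0.27 ± 0.08, mammary gland at -0.12 ± 0.03 and lymph tissue at -0.07 ± 0.02. Liver (-0.04 ± 0.10), thymus (0.03 ± 0.22) and adrenal tissue (0.04 ± 0.12) could not be ordered beyond their spots. The same held for lymph tissue and liver, and for spleen and ileum. With its ratios turned, adrenal tissue was at -0.04 and thymus was the highest. In ileum CD99 was thus on the opposite side of 0 from the other 5 genes. Its values on the reference against reference arrays were -0.11 ± 0.06 and -0.13 ± 0.19.

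LGALS9 was set apart in prepubertal mammary gland, at 0.57 ± 0.25 with spots at 0.33, 0.83 and 0.54. The other 7 tissues lay close together, from -0.03 ± 0.20 in liver and -0.02 ± 0.11 in thymus to 0.14 ± 0.04 in ileum. Spleen (0.11 ± 0.09), adrenal tissue (0.11 ± 0.08), adipose tissue (0.12 ± 0.21) and lymph tissue (0.12 ± 0.05) were between, and did not differ beyond their spots (with its ratios turned, adrenal tissue was lowest at -0.11). The lowest mammary spot, 0.33, lay just under the highest spot elsewhere, 0.34 in adipose tissue. With the reference in both channels LGALS9 was at -0.24 ± 0.18 and -1.98 ± 1.12, the latter with spots at -2.07, -0.82 and -3.05.

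Among all genes with 3 spots on an array, those of 3 of the 6 genes (PTPRC, RAC2 and CD47) lay above those of all other tissues in ileum, where 9.79% of genes did so, and 0 lay below, where 10.4% did. The array with the widest spread thus also holds the most genes that stand apart. In spleen 1 of 6 (RAC2) lay below all other tissues, against 2.56% of genes, and in liver 1 of 6 (PTPRC), against 1.12%. With the adrenal ratios turned the ileum and spleen results stood and 0 of 6 lay apart in liver. For every other gene of the 6 and every other tissue the spots overlapped those of another tissue. The shares over all genes were 2.72% above and 5.11% below in thymus, 3.21% and 4.49% in adrenal tissue, 5.59% above in prepubertal mammary gland and 3.21% above in liver.

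Measured by its place within each array, in units of the median absolute deviation (MAD) over the genes of that array, the order of the tissues changed. PTPRC was at -4.32 MADs in liver, the 6th lowest of 701 genes, and at 3.20 in adrenal tissue, the 10th highest. Both lay farther out than its 2.39 in ileum, where it was the 56th highest of 700. With the adrenal ratios turned, the adrenal value of PTPRC would lie as far out on the negative side. RAC2 was at 4.10 in ileum (25th highest) and -3.23 in spleen (17th lowest of 702). CD47 was at 4.86 in ileum (24th highest), at 4.79 in thymus, where it was the 3rd highest of 703 genes, and at -4.13 in liver (8th lowest). It was the 11th highest gene in spleen and the 13th in lymph tissue. CD99 reached -3.63 in adipose tissue (17th lowest) and -3.38 in spleen (13th lowest), whereas its ileum value was at -1.95. LGALS9 was at 4.47 in mammary gland (28th highest) and within 1.44 of the median in the other 7 tissues.

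**Figure D2:**
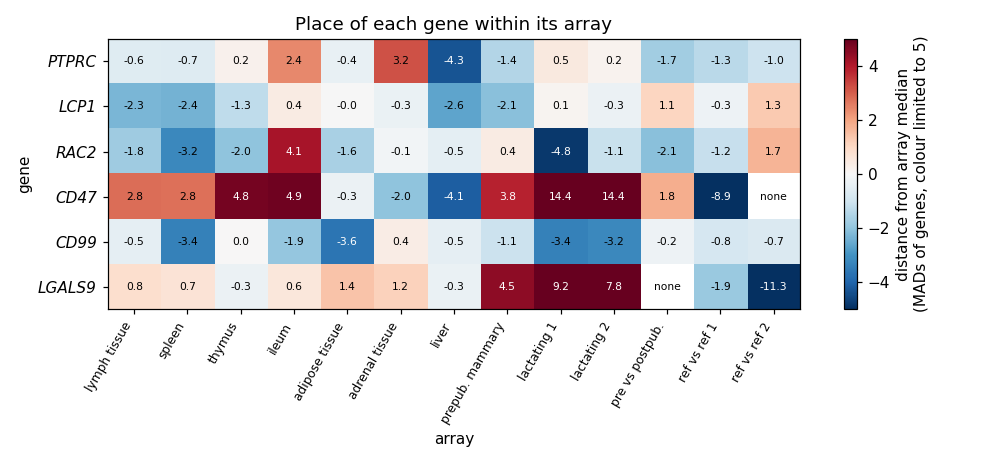
Distance of each of the 6 genes (rows) from the median gene of each array (columns), in MADs over the genes of that array; red is positive, blue negative, colours stop at 5 MADs and "none" marks fewer than 2 spots with a value. CD47 is red in the 3 lymphoid tissues, ileum and the mammary arrays and at -8.85 on reference against reference array 1, while LGALS9 is at -11.3 on reference against reference array 2.

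Which of these genes differ between lymphoid organs and tissues of other kinds was asked by setting lymph tissue, spleen and thymus against adipose tissue, adrenal tissue and liver, with each tissue as 1 replicate of its class. CD47 was higher in the lymphoid class in these ratios: 0.42, 0.41 and 0.77 against -0.01, -0.16 and -0.36, with no overlap. The difference was 0.71 (95% interval 0.44 to 0.99), the 2nd largest in size of 702 genes. That rank is a description, since the genes were picked with earlier results of these arrays in view. RAC2 was lower: -0.27, -0.47 and -0.29 against -0.12, -0.0008 and -0.04, again with no overlap, and a difference of -0.29 (-0.50 to -0.08). Neither passed the test over all genes (limma, adjusted p = 0.0556 for CD47, the smallest of any gene, and 0.191 for RAC2). The other 4 genes overlapped between the classes. LCP1 differed by -0.21 (-0.43 to 0.02, adjusted p = 0.291, limma) and CD99 by -0.09 (-0.40 to 0.22, adjusted p = 0.745, limma). PTPRC differed by -0.0016 (-0.32 to 0.32) and LGALS9 by 0.0017 (-0.20 to 0.21), both with an adjusted p of 0.993 by limma.

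In this comparison limma called 0 of 702 genes (0.0%), with 135 genes and 2 of the 6 at an unadjusted p under 0.05. Groups without overlap were found for 25.9% of all genes, 13.3% with the lymphoid class above and 12.6% below, beside 2 of these 6 genes, 1 on each side. The median difference was -0.05 over the 6 genes and -0.01 over all genes. With ileum and mammary gland added to the other side, CD47 differed by 0.34 (adjusted p = 0.664, limma) and RAC2 by -0.49 (adjusted p = 0.511, limma), so both differences moved by more than 1.5 times. With the adrenal ratios turned, the CD47 difference was 0.61 (adjusted p = 0.147, limma) and that of RAC2 -0.29. Over all alternatives CD47 kept an adjusted p between 0.0556 and 0.664.

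**Figure D3:**
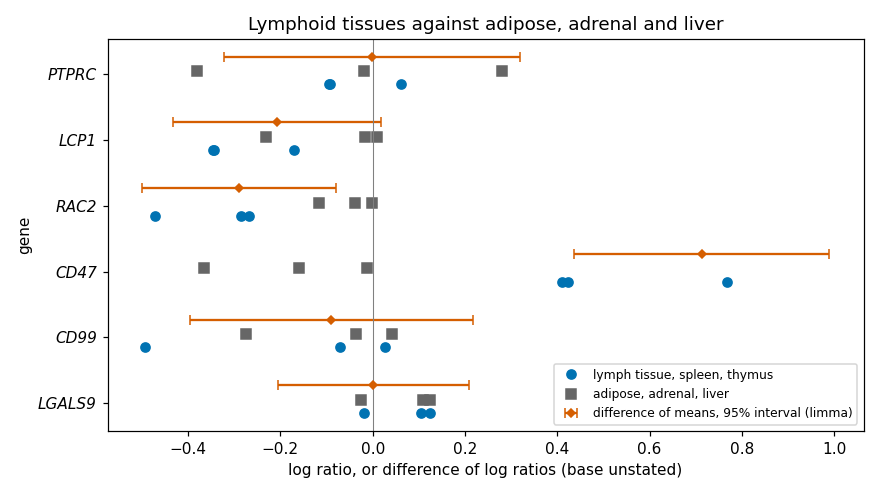
Log ratio (base unstated) of the 6 genes on the arrays of lymph tissue, spleen and thymus (blue circles) and of adipose tissue, adrenal tissue and liver (grey squares), with the difference of the class means and its 95% interval from limma (orange diamonds, 3 arrays in each class). The circles and squares do not overlap for CD47 and RAC2, and the differences are 0.71 and -0.29.

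The 6 genes were also set against 0 over all 8 tissues, which share the reference RNA and the arrays above. The median size of their means was 0.15, against 0.08 over all genes, and CD47 was the 23rd largest in size of 703. Since the genes were picked with earlier results of these arrays in view, nothing is read from that size or rank. CD47 averaged 0.32 (95% interval 0.03 to 0.61), LGALS9 0.14 (0.0015 to 0.28), LCP1 -0.15 (-0.29 to -0.02) and CD99 -0.16 (-0.31 to -0.02). Without the mammary gland array LGALS9 was 0.08, and without ileum and mammary gland CD47 was 0.18 and LGALS9 0.07. The 4 genes had an unadjusted p under 0.05, as did 173 of 703 genes, and adjusted p-values from 0.165 to 0.197 by limma. PTPRC (0.01, -0.17 to 0.20) and RAC2 (-0.03, -0.29 to 0.22) lay closest to 0. All 6 genes took both signs among the tissues. limma called 0 of 703 genes (0.0%).

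Across the 8 tissues, how the genes followed each other depended on the ileum and adrenal arrays. Over 8 arrays that share the reference, Pearson r was 0.75 between PTPRC and LCP1, 0.73 between LCP1 and RAC2 and 0.64 between PTPRC and RAC2. Without ileum these became 0.56, 0.50 and -0.03, so the relation of PTPRC and RAC2 rests on the ileum array. With the adrenal ratios turned they were 0.49, 0.71 and 0.63 with ileum, and -0.03, 0.51 and -0.56 without it. CD47, CD99 and LGALS9 correlated with each other between -0.34 and 0.21. PTPRC and CD47 correlated at 0.51, and at 0.81 with adrenal turned. CD47 and RAC2 changed from 0.35 to -0.50 without ileum. These are descriptions of 8 points.

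With the adrenal ratios turned, 10 of the 18 genes named next stayed among the 3 most like their gene: all 3 for CD99, 2 each for PTPRC, RAC2 and LGALS9, 1 for CD47 and 0 for LCP1. Among 695 genes with a value in all 8 tissues, the gene most like RAC2 was NET1 (r = 0.98, 0.92 without ileum and 0.99 with adrenal turned). NET1 lay at 1.01 in ileum, -0.36 in spleen, -0.29 in thymus and -0.25 in lymph tissue. RNF114 (r = 0.96) and UFL1 (0.95, 0.69 without ileum) came next, both enzymes of ubiquitin-like protein conjugation. PTPRC was most like ANXA8L1 (0.93), IRAK4 (0.90), a kinase of interleukin-1 and Toll-like receptor signalling, and the oxidative stress regulator NFE2L2 (0.89). LCP1 was most like the nuclear pore gene NUP160 (0.92), the proteoglycan gene VCAN (0.91) and ATF1 (0.89). CD47 was most like IGSF5 (0.94), the microfibril gene MFAP5 (0.94) and the endothelial sialomucin EMCN (0.89). CD99 was most like PTPN2 (0.94), BCAP31 (0.90) and the replication helicase subunit MCM6 (0.86). LGALS9 was most like VPS25 (0.90), the proteasome gene PSMC2 (0.89) and PLET1 (0.88).

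**Figure D4:**
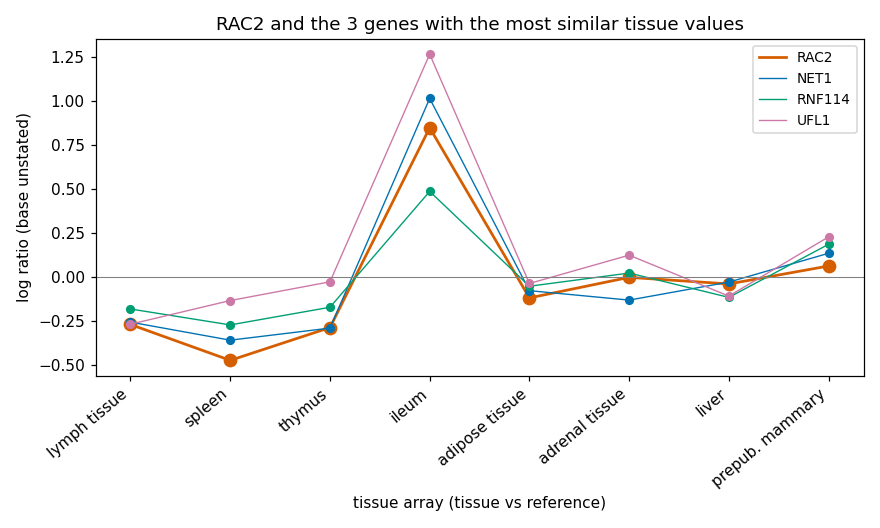
Log ratio (base unstated) of RAC2 (thick orange) and of NET1, RNF114 and UFL1, the 3 genes most like it, on the 8 tissue arrays; points are gene means over spots and lines only join the points of a gene. RAC2 and NET1 are both highest in ileum (0.85 and 1.01) and lowest in spleen (-0.47 and -0.36).

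Few other genes of these functions were on the array. Of 39 pan-leukocyte genes listed, 4 were measured: the 3 described here and the phosphatase gene PTPN6, known for restraint of leukocyte signalling. PTPN6 was at 0.61 in ileum and between -0.19 and 0.04 in the other tissues. The T and NK cell, B cell, adipocyte and erythroid lists had 0 measured genes and the macrophage and granulocyte list 1, FCGR2B (0.06 in ileum, 0.12 in lymph tissue, 0.17 in spleen, 0.15 in thymus), so the labels of the lymphoid tissues could not be checked against defining markers. The 3 hepatocyte genes measured had mixed signs in liver (FGG 0.21, A2M -0.27, C3 -1.10). In ileum, some markers of other kinds lay on the side of PTPRC, RAC2 and CD47 and others on the opposite side of 0. The antigen presentation genes BOLA-DRB3 (3.17), CD74 (2.41), BOLA (1.62) and TAP1 (0.83) were all positive there. The 4 epithelial genes (EPCAM 1.94, ELF5 0.72, MUC1 0.15, KRT7 0.06) had a median of 0.43 there and of -0.21 to 0.10 in the other tissues. The stroma and smooth muscle list (6 genes) had a median of -0.32 in ileum, and the endothelial list (EMCN 0.39, CAV1 -0.82) of -0.21. Their part in the ileum values was not tested. In lymph tissue and spleen the class II genes BOLA-DRB3 (1.03 and 1.04) and CD74 (0.48 and 0.19) lay on the side of CD47 and on the opposite side of 0 from RAC2 and LCP1.

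On the arrays of lactating against prepubertal gland, CD47 and LGALS9 lay far above 0, CD99 and RAC2 below, and PTPRC and LCP1 close to 0. CD47 had the 2nd highest mean of 697 genes, 3.06 ± 0.83 (SD, n = 2 arrays). Its spots read 1.94, 2.65 and 2.83 on array 1 and 2.99, 3.77 and 4.17 on array 2, in the same order of spots on both. LGALS9 had the 13th highest mean, 1.79 ± 0.27, with spots at 0.94, 1.99 and 1.86 on array 1 and 1.72, 2.02 and 2.19 on array 2. Both genes lay at least 1 unit above 0 on both arrays, as did 3.44% of genes. At 1 unit or more from 0 in either direction were 4.58% of genes on array 1 and 7.57% on array 2. All 12 spots of the pair were positive, and the lowest of them was 0.94, for LGALS9 on array 1.

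CD99 had the 13th lowest mean, -0.68 ± 0.16, with spots at -0.85, -0.56 and -0.28 on array 1 and -0.72, -0.84 and -0.82 on array 2. RAC2 had the 23rd lowest, -0.53 ± 0.39, and its arrays disagreed in size: the spots of array 1 (-0.57, -1.12 and -0.74) lay below those of array 2 (-0.23, -0.30 and -0.25) without overlap. The heifers of these arrays differed too, at 136 kg and 227 kg, which cannot be told apart from a difference between the arrays and was not tested. PTPRC, at 0.10 and 0.06 (mean 0.08 ± 0.03), and LCP1, at 0.04 and -0.05 (mean -0.01 ± 0.07), stayed close to 0 on both arrays, near the middle of all genes (279th and 359th from the top). The 3 leukocyte genes therefore had no common shift between the stages in these ratios.

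**Figure D5:**
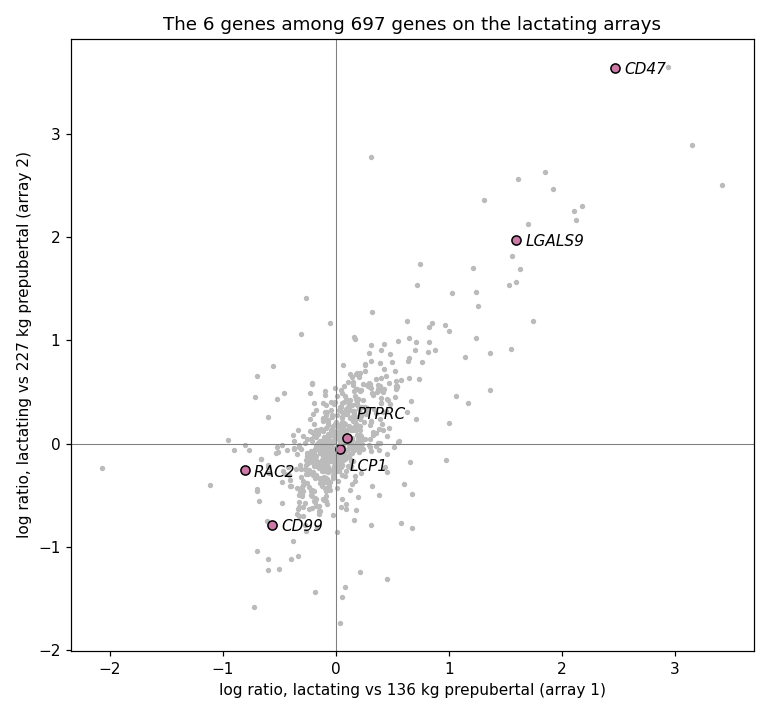
Log ratio (base unstated) of 697 genes on lactating array 1 (horizontal, against a 136 kg prepubertal heifer) and array 2 (vertical, against a 227 kg heifer); pink points are the 6 genes, grey points all others. CD47 (2.47 and 3.64) and LGALS9 (1.60 and 1.98) lie far up and right, CD99 and RAC2 low on both arrays, and PTPRC and LCP1 near 0.

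limma called 4 of the 6 genes on these arrays, CD47 and LGALS9 above 0 and CD99 and RAC2 below, where it called 14.8% of all genes (11.3% above, 3.44% below). Since the genes were picked with these values in view, nothing is read from that count. It called 2 of the 6, CD47 and LGALS9, with exact 0 kept as a value (4.53% of all genes) and with arrays scaled to the same MAD (4.3%). The RAC2 call was lost in these settings, and also with the median over spots (adjusted p = 0.0937, limma) and with no filter (0.0838). Set against both arrays of reference with reference, it called 1.92% of genes and 0 of the 5 with a value there, and against the first of these alone 6.76% of genes and 2 of the 6. Both of the highest genes were negative on a reference against reference array (CD47 at -1.14 on array 1, LGALS9 at -1.98 on array 2), where the same RNA was in both channels. On the other of these arrays, the 1 CD47 spot left read 0.50 and LGALS9 was at -0.24. The part of such deviations in the lactating values was not tested.

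Of the 9 immune surface regulators measured, 8 had a value on both lactating arrays, and limma called 3 above 0 and 2 below. Over all genes it called 14.8% (11.3% above, 3.44% below). CD47, LGALS9 and CD99 are in this list and were picked with these values in view, so nothing is read from its count or median. Beside the 3 described, these were CD36, a scavenger receptor and fatty acid transporter, at 1.01 (adjusted p = 0.000286, limma) and CD300LG, a receptor of endothelium, at -0.91 (adjusted p = 0.00158, limma). The complement regulator CD46 (-0.04), the nectin NECTIN2 (-0.22) and the butyrophilin BTN1A1 (0.29) did not pass, and CD151, a tetraspanin, had no value on array 1. The median of the list was 0.13, against -0.0003 over all genes. Of 9 genes of actin bundling and assembly, 2 were called above 0, LASP1 at 3.02 and the membrane linker MSN at 1.05 (adjusted p = 0.00015, limma), and 1 below, the capping protein CAPZA2 at -0.49 (adjusted p = 0.0478, limma), while LCP1 was among the other 6. In the lymphoid comparison and over the 8 tissues, limma called 0 genes of both lists, as it called 0 of all genes.

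Markers of other cells were measured on the lactating arrays too, where 14.8% of all genes were called. The epithelial list had a median of -0.09 with 0 of 4 genes called, the endothelial list of 0.04 with 0 of 2, and the stroma and smooth muscle list of -0.23 with 1 of 6 called, COL5A2 at 0.57 (adjusted p = 0.0185, limma). Of the antigen presentation genes, 1 of 4 was called, BOLA at -0.66 (adjusted p = 0.00802, limma), and of the liver genes 1 of 3, the complement gene C3 at 1.13 (adjusted p = 7.53e-05, limma). Their part in the values of the 6 genes was not tested.

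On the array of prepubertal against postpubertal gland, none of the 5 genes with a value was at 1 unit or more from 0, as none of 694 genes was (0.0%). CD47 was highest at 0.19 ± 0.11, with spots at 0.07 to 0.28, and LCP1 was at 0.12 ± 0.19. RAC2 (-0.20 ± 0.20) and PTPRC (-0.16 ± 0.41) were lowest, and CD99 was at -0.01 with spots from -0.54 to 0.65. For each of these but CD47 the SD over spots exceeded the distance from 0.

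The reference against reference arrays gave limma 0 calls among 680 genes (0.0%), with 43 genes at an unadjusted p under 0.05, LGALS9 among them (mean -1.11, 95% interval -2.07 to -0.16, adjusted p = 0.717, limma). At 1 unit or more from 0 lay 0.857% of genes on array 1, CD47 among them, and 3.96% on array 2, LGALS9 among them. The other 4 genes stayed within 0.30 of 0 on both arrays. In all, 7 of the 76 values of these genes on the 13 arrays were at 1 unit or more from 0. Of these, 4 lay on the lactating arrays, 1 in ileum and 2 where the reference was in both channels, and all 7 belonged to CD47 or LGALS9.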

How the data were processed

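The 6 genes and all gene lists were chosen with earlier results of these data known. The authors' deposited table holds 1 log ratio per spot and array. The sources used here do not say how it was made, its base or its channel order. Spots were named through the platform annotation (2538 spots with 1 gene, 30 with several, 1320 with none), and 703 of 706 genes matched RefSeq (assembly ARS-UCD2.0) by identifier. Exact 0 was set to missing, arrays were centred on their median, spots of 1 accession were averaged (at least 2), features with values on at least 7 arrays were kept, and a gene was the mean of its features. Tests were two-sided in limma 3.58.1 (R 4.3.3; lmFit, eBayes) over all genes with Benjamini-Hochberg adjustment at 0.05, and the fit was tested on simulated data. The rest used Python 3.11.15, numpy 2.4.6, pandas 2.3.3 and matplotlib 3.10.9. The named genes were the 6, the 3 genes with the highest Pearson r to each, and measured genes of the 14 lists, which for the actin list were those called. The result of 1 list is not reported here. Alternatives varied centring, exact 0, array scale, spot summary, filter and the arrays used.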

Additional observations from a re-analysis of the deposited data

Results flagged for a closer look

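RAC2 in ileum (log ratio 0.85) and LGALS9 in prepubertal mammary gland (log ratio 0.57) each stood apart from the other 7 tissues by Dixon's ratio. This is the gap to the next tissue divided by the range over the tissues. For both genes it exceeded the 95% critical value for 8 values (0.526). That limit marks about 1 in 20 sets by chance, and 15.9% of all 703 genes had such a tissue.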

How the results depend on the processing

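With 1 or 2 arrays a group, the number of arrays limits every value here. Of 234 tested values of the 6 genes under the alternatives, 197 kept their direction and their side of the threshold, 11 lost a call and 26 changed sign. All 26 belonged to values that were not called. The cause was not tested.

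For lactating against prepubertal gland, 103 genes were called, 76.7% of them above 0. Without centring there were 84, 61.9% above. There were 32 with exact 0 kept, 30 with arrays scaled to the same MAD, 13 against both arrays of reference with reference, and 47 against the first alone (chosen after seeing the data). Of the 6 genes, 4 were called, as without centring. There were 2 with exact 0 kept, 2 with MAD scaling, 0 against both reference arrays and 2 against the first alone. RAC2 was not called in 6 of 7 alternatives (adjusted p from 0.0838 to 0.589 by limma), CD99 in 4 (0.0606 to 0.299), and LGALS9 in 1 (2.90, adjusted p = 0.0825). PTPRC was at -0.0188 without centring and LCP1 at 0.0308 against the first reference array alone. Leaving out a lactating or a reference array gives 22 values with no test. Of these, 3 had the other sign: without array 2, LCP1 on the lactating side (0.04), and LCP1 (-0.04) and RAC2 (-0.15) of the reference.

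In the lymphoid comparison (0 genes called), there was 1 call with the adrenal ratios turned (chosen after seeing the data) and 0 to 2 when 1 tissue was left out, the 2 without thymus. PTPRC changed sign to 0.0018 without centring, 0.0026 with exact 0 kept, 0.0061 with the median over spots, 0.0261 with MAD scaling and 0.19 with adrenal turned. LGALS9 became -0.043 with MAD scaling and -0.11 with ileum and mammary gland added. Leaving out 1 tissue gave -0.17 to 0.16 for PTPRC, -0.19 to 0.0676 for CD99 (the latter without spleen) and -0.0457 to 0.0467 for LGALS9.

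Over the 8 tissues (0 called), there were 2 calls with MAD scaling, 1 with adrenal turned and 0 to 1 with a tissue left out, the 1 without adrenal tissue. PTPRC became -0.0221 with MAD scaling, -0.0412 without ileum and mammary gland and -0.0585 with adrenal turned. Leaving out 1 tissue gave -0.0587 to 0.0677 for PTPRC and -0.16 to 0.0287 for RAC2, which was -0.16 without ileum. For reference against reference (0 called), MAD scaling gave 5 calls, and the median over spots gave PTPRC 0.0727 and RAC2 -0.0131.

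No paired analysis was possible because the groups compared share no replicate numbers in the labels. Each gene had 1 feature, so features could not be taken one by one.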
